A study of Mus musculus with 4 samples.

Results

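The 44 genes described here are expressed in dividing cells and act in DNA replication, entry into mitosis, chromosome segregation or the packaging and skeleton changes of division. They were taken as a fixed list, and all 44 of them were found by symbol among the 32285 genes of the deposited matrices. Their counts of unique molecular identifiers (UMIs, which count captured RNA molecules) were followed in 4 immune lineages of mouse melanoma, gated by marker genes. A CD8 T cell had at least 1 UMI each of Cd3e and Cd8a, an NK cell had Ncr1 without Cd3e, a type 1 conventional dendritic cell (cDC1) had Xcr1 or Clec9a, and a monocyte/macrophage had at least 5 UMIs of Lyz2. A cell was called cycling when Mki67, Top2a and Birc5 together reached 3 UMIs.

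The study asked whether antibody inhibition of MIF, a cytokine that binds Cd74, adds to inhibition of PD-1, an inhibitory receptor of T cells. Wild-type male C57BL/6J mice, 7 to 8 weeks old, carried subcutaneous YUMMER1.7 tumors, a mouse melanoma line with added UV-induced mutations. From day 7 they received isotype control IgG, anti-PD-1 at 10 mg/kg, anti-MIF at 20 mg/kg or the combination of both antibodies. Tumors of the long cohort were taken after 2 weeks and 4 doses on day 21, and those of the short cohort after 1 week and 2 doses on day 14. Sorted cells were recombined at 20% CD45- and 80% CD45+, so the makeup of the suspension was set by the sort. Hashtag antibodies marked the 4 arms of each cohort before they were pooled into 1 droplet library of 10x Genomics. Each of the 8 arms is therefore 1 hashtagged sample without a replicate, and the number of mice behind it is not given in the sources used here. P-values measure the spread between arms. The hashtag named anti-PD1-MIF-DDT in both matrices, absent from the labels, was left out with its cells. Each cohort is 1 library, so the day, the number of doses and the library cannot be told apart.

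The cell cycle is driven by cyclins, which activate cyclin-dependent kinases in turn. In late G1, E2F factors are freed from the retinoblastoma proteins and switch on genes for licensing and copying DNA, such as the MCM helicase subunits and the enzymes that make deoxynucleotides. In G2, the MuvB complex with B-Myb and FoxM1, together with NF-Y, raises a later set that includes the B cyclins, the mitotic kinases and the spindle motors. Activated CD8 T cells divide rapidly after antigen contact. Monocytes leave the marrow largely as nondividing cells, whereas some tissue macrophages can divide locally.

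The promoters of the 44 genes carry short sequences that are known to separate these gene sets. RefSeq promoters on GRCm38.p6 (300 bases, from 250 before to 50 after the start) were found for 37 of the 44 genes and for 27025 genes in all. The cell cycle homology region was searched as TTTGAA, the NF-Y box as CCAAT, and the E2F element as TTTCCCGC, TTTCGCGC, TTTGCCGC or TTTGGCGC, each on both strands. TTTGAA was present in 16 of 21 promoters of the mitotic genes (76.2%, counting the 3 gate genes) and in 1 of 11 replication genes (9.09%), against 20.2% of all genes. The E2F letters were present in 5 of 11 replication genes (45.5%) and in 1 of 21 mitotic genes (4.76%), against 2.61% of all genes. CCAAT was common in both, at 18 of 21 and 9 of 11, against 41.1% of all genes. The 150 bases before the start are shown for genes that the results turn on, with every match in capitals, and a match is a description of letters, not a shown binding site. Top2a (chr11:99024190-99024339, minus strand), Ccnb2 (chr9:70421555-70421704, minus strand) and Kif11 (chr19:37376232-37376381, plus strand) are mitotic genes. Cdk1 (chr10:69352913-69353062, minus strand) holds all 3 kinds of match. Mcm5 (chr8:75109359-75109508, plus strand) and Mcm6 (chr1:128359706-128359855, minus strand) are replication genes, and in Mcm6 the match TTTGGCGC overlaps GCGCGAAA, the reverse of TTTCGCGC.
Top2a: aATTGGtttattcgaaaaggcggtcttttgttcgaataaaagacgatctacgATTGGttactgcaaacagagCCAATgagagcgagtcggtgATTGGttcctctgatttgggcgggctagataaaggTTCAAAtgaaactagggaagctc
Ccnb2: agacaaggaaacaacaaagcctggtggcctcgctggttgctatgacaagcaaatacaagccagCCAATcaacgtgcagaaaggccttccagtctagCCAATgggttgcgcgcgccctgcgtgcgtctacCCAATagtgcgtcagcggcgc
Kif11: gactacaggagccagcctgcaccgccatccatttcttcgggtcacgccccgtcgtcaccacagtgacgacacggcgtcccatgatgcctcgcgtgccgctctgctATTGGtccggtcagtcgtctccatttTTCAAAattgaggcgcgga
Cdk1: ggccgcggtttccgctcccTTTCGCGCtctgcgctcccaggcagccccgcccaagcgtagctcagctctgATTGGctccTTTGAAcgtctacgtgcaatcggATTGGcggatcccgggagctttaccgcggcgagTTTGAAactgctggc
Mcm5: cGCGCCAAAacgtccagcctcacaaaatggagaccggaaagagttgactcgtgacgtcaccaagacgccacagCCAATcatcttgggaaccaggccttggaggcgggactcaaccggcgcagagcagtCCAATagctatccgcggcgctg
Mcm6: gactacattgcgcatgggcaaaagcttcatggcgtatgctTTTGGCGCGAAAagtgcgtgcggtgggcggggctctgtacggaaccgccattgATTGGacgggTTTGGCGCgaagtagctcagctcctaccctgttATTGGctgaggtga

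The long library held 2516 barcodes with 23702910 gene UMIs, of which 1671 cells were kept (a single arm hashtag, 200 to 5000 genes and at most 5% mitochondrial UMIs), and the short library held 4987 barcodes with 31799441 gene UMIs, of which 3119 were kept. The 2 libraries shared 20 barcodes, 12 of them among kept cells. In the long and the short cohort, the gates took 204 and 184 CD8 T cells, 34 and 104 NK cells, 87 and 50 cDC1, and 755 and 1774 monocytes/macrophages. A further 573 and 975 kept cells met no gate, and 18 and 32 cells met more than 1 gate and were left out. Median UMIs per cell were 5942.5 and 4292 in CD8 T cells but 10977 and 6923 in monocytes/macrophages. Markers that no gate used were highest in their own gate for 7 of 7 CD8 T, 7 of 7 NK, 7 of 7 cDC1 and 8 of 8 monocyte/macrophage genes. Cd3d, a chain of the T cell receptor complex, had a UMI in 91.5% of CD8 T cells and in 0.435% of monocytes/macrophages, and Csf1r, the macrophage growth factor receptor, in 1.55% and 88.0%. Some other foreign markers were more frequent in CD8 T cells, with a UMI of C1qa in 3.35% and of Cd14 in 2.32% of them, and no correction for free RNA was made. The cDC1 gate was not pure in its markers. Siglech, a marker of plasmacytoid dendritic cells, which also express Clec9a, had a UMI in 28.5% of the gated cDC1, against 3.49% of cells without a gate, and Ccr9 in 29.9%. Of the 39 gated cDC1 with Siglech, 1 held Xcr1 and 0 were cycling.

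CD8 T cells had the larger share of cycling cells in most arms, and monocytes/macrophages the smaller. In the long cohort 27 of 204 CD8 T cells (13.2%, exact binomial 95% interval 8.91 to 18.7%) and 53 of 755 monocytes/macrophages (7.02%, 5.30 to 9.08%) were cycling. In the short cohort the counts were 17 of 184 CD8 T cells (9.24%, 5.47 to 14.4%) and 16 of 1774 monocytes/macrophages (0.902%, 0.516 to 1.46%). Among cDC1, 7 of 87 and 5 of 50 cells were cycling (8.05% and 10.0%), or 7 of 63 and 5 of 35 (11.1% and 14.3%) of those without Siglech, and among NK cells 1 of 34 and 11 of 104 (2.94% and 10.6%). The 12 cycling cDC1 differed in some markers from the 125 other cells of that gate, with a UMI of Ptprc (CD45), the leukocyte antigen of the sort, in 50% against 91.2%, of C1qa in 33.3% against 10.4% and of Ly6c2 in 16.7% against 61.6%, while Irf8, a factor of the cDC1 lineage, was found in 91.7% against 92%. Whether all 12 are dividing cDC1 was not tested. Intervals and limits cover counting error only.

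**Figure D1:**
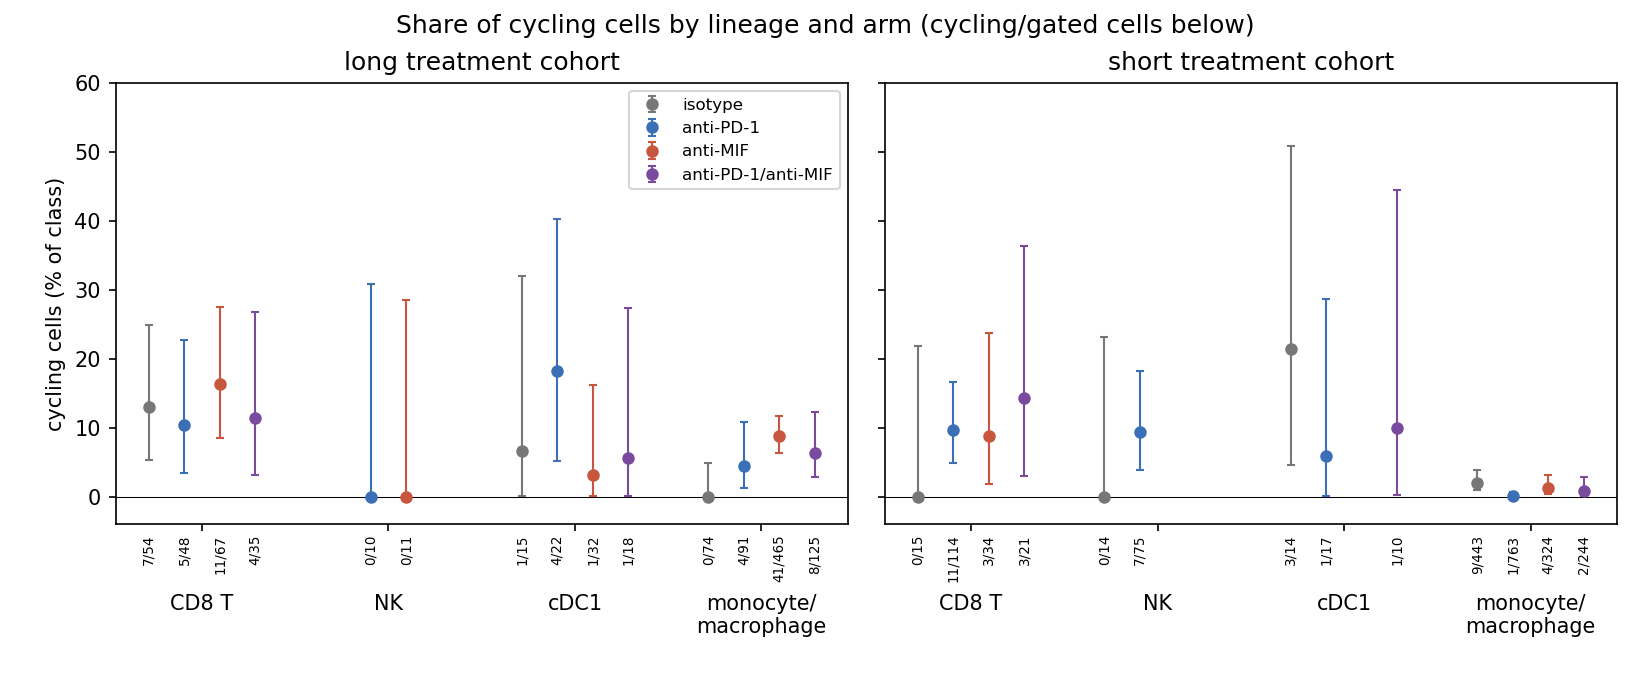
Percent of cells with 3 or more UMIs of Mki67, Top2a and Birc5 together (y axis) by lineage (x axis) and treatment arm (color) in each cohort, with exact binomial 95% intervals as bars. Arms with under 10 cells of a lineage are not drawn. Monocytes/macrophages of the short cohort lie at 0.131 to 2.03%, below those of the 3 antibody arms of the long cohort at 4.4 to 8.82%.

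By arm, the cycling share of CD8 T cells was 13% with isotype, 10.4% with anti-PD-1, 16.4% under anti-MIF and 11.4% with the combination in the long cohort. In the short cohort it was 0 of 15 cells with isotype, which allows up to 20%, then 9.65% with anti-PD-1, 8.82% under anti-MIF and 14.3% with the combination. Apart from the small short isotype arm, the CD8 T shares of the short cohort, 8.82 to 14.3%, overlapped those of the long cohort, 10.4 to 16.4%. Monocytes/macrophages of the long cohort gave 0 of 74 with isotype (up to 4.05%), 4.4% with anti-PD-1, 8.82% (41 of 465) under anti-MIF and 6.40% with the combination. In the short cohort they gave 2.03%, 0.131%, 1.23% and 0.820% in the same order. Across 8 arms the CD8 T share exceeded the monocyte/macrophage share by 7.52 ± 4.91 percentage points (SD, n = 8 arms), with 7 of 8 arms in that direction (by an exact two-sided permutation of signs, p = 0.0156, and 0.156 after Benjamini-Hochberg adjustment over 10 share tests). cDC1 exceeded monocytes/macrophages by 6.89 ± 8.45 points (SD, n = 7 arms) in 5 of 7 arms (exact p = 0.0781, adjusted 0.391), and by 4.5 points in the 4 arms that kept 10 cells without Siglech, an alternative chosen after seeing the data. NK cells lay under CD8 T cells in 3 of the 4 arms with at least 10 cells of each and level with them in the other, at a mean difference of -6.79 ± 8.04 points (SD, n = 4 arms), where the exact test cannot go below p = 0.125 (p = 0.25, adjusted 0.5). Among these 4 arms only the short anti-PD-1 arm held cycling NK cells (9.33%). The others, with 10, 11 and 14 NK cells, are too small for their 0 to limit the share closely. The short anti-MIF and combination arms held under 10 NK cells each and were left out. Together they had a larger cycling share in NK than in CD8 T cells.

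Some of the cycling calls lay near the limit of the gate. No UMI of the 3 gate genes was found in 66.2% and 77.2% of CD8 T cells and in 84.1% and 93.9% of monocytes/macrophages (long and short). Just inside the limit, at 3 to 4 UMIs, were 10 and 8 CD8 T cells and 11 and 5 monocytes/macrophages. Just outside, at 2 UMIs, were 9 and 4 CD8 T cells and 13 and 11 monocytes/macrophages. Because monocytes/macrophages had more UMIs per cell, the cells were also thinned to 2000 UMIs each, leaving out 14 and 18 CD8 T cells and 11 and 37 monocytes/macrophages below that number. At 3 or more gate UMIs after thinning, the shares were 6.32% and 4.82% in CD8 T cells, 1.08% and 0.288% in monocytes/macrophages, 0 and 4.04% in NK cells, and 3.53% and 2.04% in cDC1. CD8 T cells were thus above monocytes/macrophages in both cohorts at equal depth too. Of the 16 cycling monocytes/macrophages of the short cohort (0.902%), 11 held 5 or more gate UMIs, beside the 0.435% of monocytes/macrophages with a UMI of Cd3d.

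Levels of the genes are described next, in the sums of all gated cells. Over the arms with at least 10 cells of a lineage, 39 of the 44 genes had their highest mean CPM (UMIs of the summed cells scaled to a total of 1000000) in CD8 T cells, 3 in cDC1 (H2afz, Cdc20 and Kif23) and 2 in NK cells (Mcm3 and Mcm6), and 27 had their lowest in monocytes/macrophages. With the smaller arms included, NK cells were highest for 7 genes, and the short anti-MIF and combination arms, with 8 and 7 NK cells, gave 1301 and 1640 CPM for the 13 replication genes together, against 177 to 624 CPM in the 4 arms with at least 10 NK cells. The CPM of the 39 genes other than the 5 abundant chromatin and tubulin genes summed to 1722 ± 592 in CD8 T cells and 345 ± 220 in monocytes/macrophages (SD, n = 8 arms). Within CD8 T cells that sum ran from 831 in the short isotype arm to 2644 in the long anti-PD-1 arm, and within monocytes/macrophages from 164 in the short anti-PD-1 arm to 683 in the long anti-MIF and combination arms. The ranges did not overlap.

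**Figure D2:**
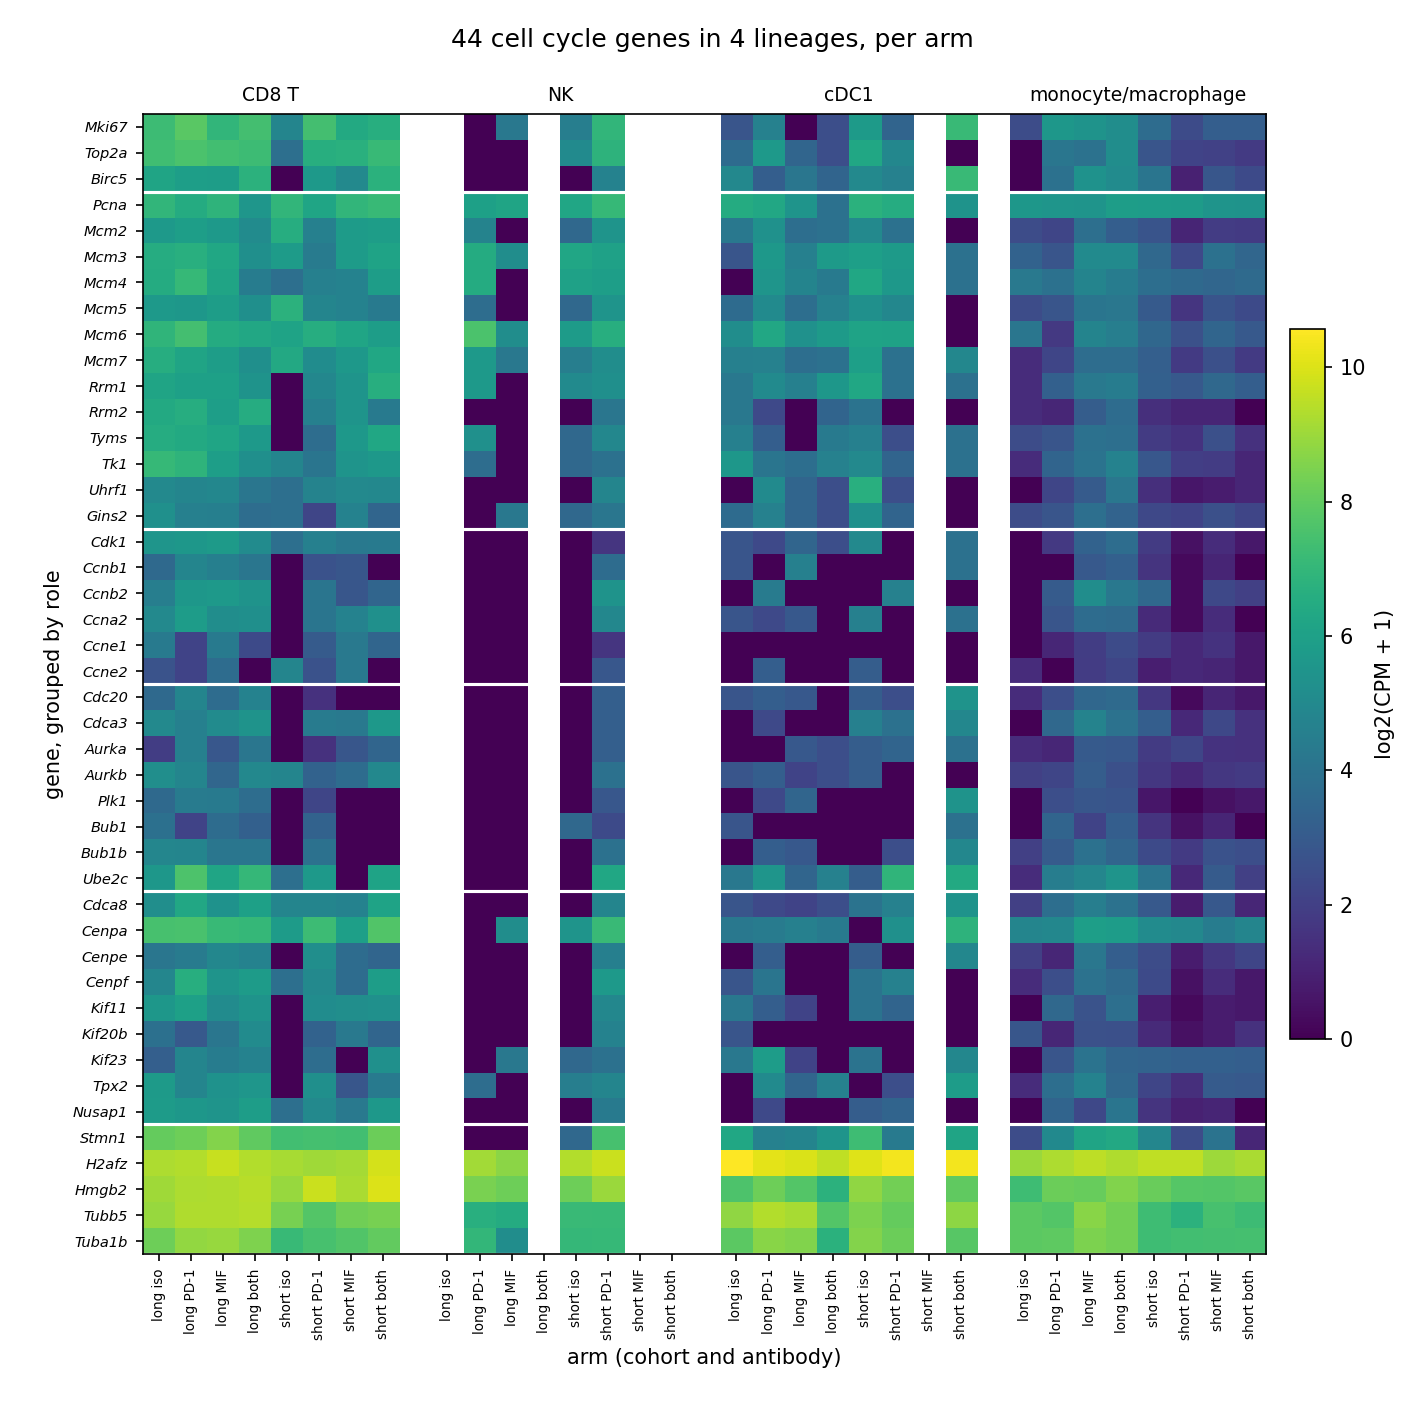
Level of each of the 44 genes (rows, grouped by role) in each lineage and arm (columns), as log2(CPM + 1). CD8 T columns are the most evenly filled, and the short isotype arm of CD8 T cells (15 cells) and several NK and cDC1 arms hold genes at 0.

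UMIs were summed per arm and lineage and compared by edgeR's quasi-likelihood test, in which arm was a block, adjusted over all genes tested (Benjamini-Hochberg, 0.05). Between CD8 T cells and monocytes/macrophages, 43 of the 44 genes passed the filter on low counts (Bub1 did not), 36 were higher in CD8 T cells and 0 lower. The filter asks for enough counts in only some of the sums, so a gene can be tested through the lineage where it is high alone. Counts of higher and lower genes between lineages carry this limit, for the set and for all genes. Of the 36, 30 kept their call in every alternative in which they were tested, and Birc5, Cdca3, Gins2, Pcna, Ube2c and Tubb5 lost it in at least 1. Across all 8729 genes tested, 27.3% were higher and 33.5% lower. The median log2 fold change was 2.04 over the 43 genes and -0.05 over all genes. Without arm as a block the filter left 22 of the genes, and 19 passed, all higher, beside 1822 higher and 2017 lower of 6304 genes.

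The 3 gate genes were all higher in CD8 T cells. Mki67 (chr7:135689784-135716361, minus strand) encodes the Ki-67 protein that coats mitotic chromosomes. Its CPM in CD8 T cells was 152, 228, 124 and 167 in the long isotype, anti-PD-1, anti-MIF and combination arms, and 27.3, 168, 85.7 and 97.7 in the short arms. In monocytes/macrophages the CPM was 4.55, 47.8, 41.6 and 35.8 in the long arms and 12.4, 4.37, 8.04 and 7.90 in the short arms. CD8 T cells were higher in 8 of 8 arms, and the 2 ranges met only through the short isotype CD8 T cells (log2 fold change 2.58, SE 0.50, edgeR adjusted p = 0.00242). Top2a (chr11:98992943-99024189, minus strand), the topoisomerase that untangles sister chromatids, gave 160, 188, 163 and 150 CPM in long and 13.6, 97.5, 104 and 137 CPM in short CD8 T cells. In monocytes/macrophages it gave 0, 16.7, 14.6 and 35 CPM in the long and 5.92, 3.42, 3.06 and 2.43 CPM in the short arms. CD8 T cells exceeded monocytes/macrophages in 8 of 8 arms (log2 fold change 3.47, SE 0.49), through a single UMI in the short isotype arm. Birc5 (chr11:117849251-117855743, plus strand), or survivin, targets the chromosomal passenger complex and was the nearest of the 3 to the threshold (2.00, SE 0.72, edgeR adjusted p = 0.0437), higher in 7 of 8 arms. It lost its call in 7 of 19 alternatives, without the limit of 5000 genes (edgeR adjusted p = 0.0709) and when any of 6 single arms was left out.

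All 13 replication genes were higher in CD8 T cells, with a median log2 fold change of 2.41. Rrm2 (chr12:24708241-24714146, plus strand), the inducible subunit of ribonucleotide reductase, had the largest difference of the 44 genes (3.5, SE 0.37, edgeR adjusted p = 4.42e-09). Its CPM in CD8 T cells was 85.7, 94.1, 60 and 91.9 in the long arms and 0, 23.5, 42.9 and 19.5 in the short arms. In monocytes/macrophages it was 1.52, 1.20, 7.75 and 12.2 in the long arms and 1.69, 1.14, 1.15 and 0 in the short arms. Every CD8 T arm but the short isotype arm lay above every monocyte/macrophage arm. Among the MCM subunits of the replicative helicase, Mcm2 (2.98), Mcm7 (2.89), Mcm6 (2.60) and Mcm5 (2.20) differed more than Mcm3 (1.70) and Mcm4 (1.30) on the log2 scale. Tyms (2.65), which makes thymidylate, Uhrf1 (2.63), which copies DNA methylation to new strands, and Tk1 (2.41), the salvage kinase of thymidine, were also higher. Pcna, the sliding clamp of DNA polymerases, differed least of the 13 (0.69, SE 0.19), at 104 ± 31.1 CPM in CD8 T cells and 48.7 ± 6.66 CPM in monocytes/macrophages (SD, n = 8 arms).

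Of the 6 cyclin and Cdk1 genes, 5 were higher. Cdk1, the kinase that starts mitosis, gave 44.2, 47.0, 53.8 and 33.4 CPM in long and 13.6, 23.5, 18.4 and 19.5 CPM in short CD8 T cells. In monocytes/macrophages it gave 0, 2.39, 8.98 and 12.9 CPM in the long and 2.54, 0.380, 1.53 and 0.608 CPM in the short arms, so the lineages did not overlap (log2 fold change 2.94, SE 0.43). The lowest CD8 T value, 13.6 CPM in the short isotype arm, is a single UMI among 73384, so the lack of overlap rests on that molecule. Ccna2 (2.65), the A-type cyclin of S and G2 phase, and the E-type cyclins of S phase entry, Ccne1 (2.12) and Ccne2 (2.00), were higher too. The B-type cyclins differed from each other in the call. Ccnb1 was higher (2.04, edgeR adjusted p = 0.00228), whereas Ccnb2, at 24.1 ± 19.5 and 9.82 ± 12 CPM, was not past the threshold (1.33, SE 0.57, edgeR adjusted p = 0.0616) but passed it under several alternatives, among them DESeq2.

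Mitotic regulators were less uniform. Of 7 tested mitotic kinase, checkpoint and destruction genes, 4 were higher: Aurkb (2.10), the kinase of the passenger complex, Ube2c (2.06), the ubiquitin-conjugating enzyme of the anaphase-promoting complex, Plk1 (1.63) and Cdca3 (1.54). Aurka (0.68, SE 0.55), Bub1b (0.83, SE 0.42) and Cdc20 (0.90, SE 0.49), the activator of the anaphase-promoting complex, did not pass. With 2 UMIs of Cd3e and Cd8a, Bub1b and Cdc20 passed as higher. Bub1b also passed without the long anti-MIF, the short anti-MIF or the short combination arm. Of 9 centromere and spindle genes 8 were higher, among them Kif11 (3.17), the motor that pushes spindle poles apart, Nusap1 (3.15) and Cenpf (2.84). Kif23, a motor of cytokinesis, was not past the threshold (0.64, SE 0.39), and its monocyte/macrophage CPM was 8.14 ± 4.23, among the flattest of the spindle genes there.

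The 5 abundant genes were mixed. Stmn1, which destabilizes microtubules, was higher in CD8 T cells (3.08), as were Hmgb2 (1.10), a chromatin-bending protein, and Tubb5 (0.70), a beta-tubulin. H2afz, the histone variant H2A.Z, did not pass (-0.26, SE 0.12, edgeR adjusted p = 0.0568), and it passed as lower under several alternatives, among them both other hashtag calls, the mitochondrial limit of 10% and no limit on genes (log2 fold changes of -0.26 to -0.29). Its sign depended on the scaling, since its CPM was 671 ± 145 and 639 ± 95.6 and higher in CD8 T cells in 6 of 8 arms. Tuba1b, an alpha-tubulin, did not pass either (0.05, SE 0.12). Tuba1b, Tubb5, Hmgb2 and H2afz have near-identical relatives or processed copies, so their counts are uncertain.

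**Figure D3:**
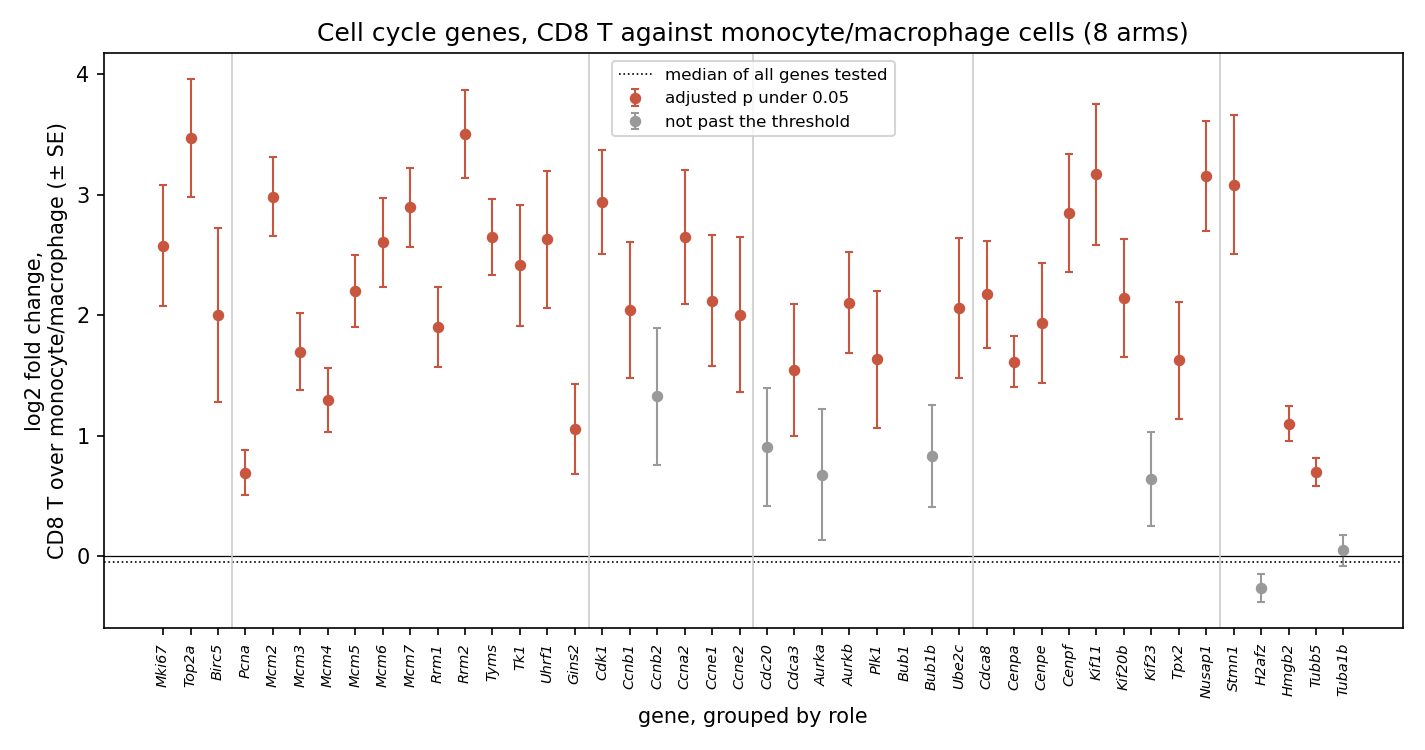
Log2 fold change of CD8 T cells over monocytes/macrophages (y axis, bars are SE) for each gene (x axis, grouped by role) from edgeR over 8 arms, with the threshold as color. The 13 replication genes all lie above 0 and past the threshold, whereas H2afz lies at -0.26 and Tuba1b at 0.05, and Bub1 was not tested.

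Of a fixed list of 85 other cell cycle genes 67 were tested, and 56 were higher in CD8 T cells and 5 lower (median 1.96), beside the 27.3% higher and 33.5% lower of all genes. Origin licensing and replication genes were higher in 19 of 20 and mitosis genes in 26 of 28. Of the G1 cyclins and kinases 4 of 5 were higher and 1 lower, of the inhibitors and pocket proteins 4 of 8 higher and 3 lower, and of the E2F, Myb and Fox factors 3 of 6 higher and 1 lower, so the share of lower genes among these was not above that of all genes. The 5 genes that were lower in CD8 T cells were Ccnd1, a D-type cyclin, by 5.65 on the log2 scale (2.68 against 114 CPM), Cdkn1a, the p21 inhibitor, by 5.49 (12.8 against 588 CPM), E2f2 by 1.5, Rb1 by 0.86 and Cdkn2d by 0.55. The other D-type cyclins, Ccnd2 (0.77) and Ccnd3 (0.41), and their partner kinase Cdk6 (1.83) were higher in CD8 T cells.

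When cycling cells were left out, an alternative chosen after seeing the data, 19 of the 44 genes passed the filter, 15 of them higher in the remaining CD8 T cells and 3 lower, against 27.5% and 31.9% of 8217 genes. Mcm2 (2.77), Rrm2 (2.58), Mcm7 (2.54), Mcm6 (2.39) and Tyms (2.38) were among the 15, as were the gate genes Top2a and Mki67, whose remaining counts were set by the removal itself. The 3 lower genes were Tuba1b (-1.62), H2afz (-0.82) and Tubb5 (-0.37), so Tubb5 changed direction. Removing cells by 3 of these genes trims both lineages at the same 3 UMIs and not at the same depth.

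Between NK and CD8 T cells the genes were called about as often as all genes were. Over the 4 arms with at least 10 cells of each, 21 of the 44 genes were tested, 0 were higher and 2 lower, against 4.22% and 4.77% of 3982 genes. The 2 were Tubb5 (-1.63, SE 0.32, edgeR adjusted p = 0.00162) and Hmgb2 (-0.86, SE 0.21, edgeR adjusted p = 0.0104). Hmgb2 lost its call without arm as a block (edgeR adjusted p = 0.0580), with Lyz2 at 1 UMI (0.241), without the long anti-PD-1 or the long anti-MIF arm, and without cycling cells, where Tubb5 lost its call too. Tubb5 in NK cells was 102 CPM in the long anti-PD-1, 88.5 in the long anti-MIF, 141 in the short isotype and 137 in the short anti-PD-1 arm, below the 628, 633, 341 and 215 CPM of the CD8 T cells. Of the 21 genes, 3 were positive, and the median log2 fold change was -0.86, against -0.02 over all genes. An unadjusted edgeR p under 0.05 was found for 7 of the 21, beside 740 of 3982 genes. The median was -0.29 with Lyz2 at 1 UMI and 0.17 without cycling cells. Pcna (0.05, SE 0.33), Mcm6 (-0.14, SE 0.31) and Rrm1 (-0.14, SE 0.56) lay near 0, with errors that leave room for differences in either direction. NK mitotic genes came mainly from the short anti-PD-1 arm, with 75 cells. There Ccnb2 gave 41.5 CPM and Ube2c 76.8 CPM, and the other 3 arms gave 0 for both. Without that arm 9 genes were tested and 7 were lower, against 5.41% higher and 6.7% lower of 1553 genes, and without cycling cells 10 were tested and 0 were higher or lower, against 4.42% and 4.99% of 3306 genes. Of 22 other cell cycle genes tested, Myc was higher in NK cells (2.58), and Pttg1 (-1.48) and Cdk6 (-0.96) were lower.

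Between cDC1 and monocytes/macrophages, most genes past the threshold were replication genes, and the calls depended on the gates. Over 7 arms 27 of the 44 genes were tested, 7 were higher and 0 lower, against 14.8% and 17.4% of 7400 genes. Of the 7, 5 were replication genes: Mcm6 (1.95, SE 0.50), Mcm7 (1.78), Mcm2 (1.66), Rrm1 (1.46) and Mcm5 (1.38). The others were Tubb5 (0.76) and H2afz (0.64). Mcm6 gave 35.4, 80.0, 39.7 and 52.7 CPM in the long and 69.2, 67.4 and 0 CPM in the short isotype, anti-PD-1 and combination arms of cDC1. In monocytes/macrophages of the same arms it gave 16.7, 2.39, 26.1 and 22.2 CPM, then 10.4, 5.12 and 6.68 CPM, so cDC1 were higher in 6 of 7 arms. All 12 tested replication genes had a positive log2 fold change (median 1.37). The 7 mitotic, centromere and cyclin genes tested ran from -0.63 for Cenpa, the centromeric histone, to 1.41 for Ube2c, and 0 of the 7 passed. This comparison depended on the Lyz2 gate. With Lyz2 at 1 or more UMIs, which moves cDC1 with any Lyz2 into the mixed cells, 24 genes were tested, 0 were higher and 3 lower, against 9.46% and 13.4% of 7377 genes. Without the cells with Siglech only 4 of the 7 arms held enough cells, and of 21 genes tested 2 were higher (Mcm6 and H2afz) and 0 lower, against 8.97% and 11.9% of 6888 genes. Mcm2 (1.90), Mcm5 (1.60), Rrm1 (1.07) and Tubb5 (0.83) then missed the threshold, and since the folds of Mcm2, Mcm5 and Tubb5 were not smaller, the removal of these cells and the loss of arms cannot be told apart. Each of the 7 genes lost its call in at least 1 alternative. In the other cell cycle list, Dut (1.94), Ccnd1 (1.44) and Pola1 (1.17) were higher in cDC1, and E2f2 (-2.04), Cdkn1a (-1.90) and Cks2 (-1.33) were lower, of 34 tested.

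Within a lineage, the genes differed in how closely they followed the cycling call, which used 3 of them and so allows a description only. Cycling cells held 20.8% of all CD8 T UMIs and 4.57% of all monocyte/macrophage UMIs. Most UMIs of the mitotic genes were in them, at a median of 86.8% for the 9 centromere and spindle genes in CD8 T cells and 77.9% in monocytes/macrophages. Ccna2 gave 146 CPM in cycling and 1.11 CPM in other CD8 T cells, and 99 and 0.194 CPM in monocytes/macrophages. Cenpe, a kinetochore motor, had all 55 of its CD8 T UMIs in cycling cells. Replication genes were less tied to the call. The median replication gene was 4.93 times higher in cycling than in other CD8 T cells and 6.11 times in monocytes/macrophages, against 23.6 and 73.7 times for the median centromere and spindle gene. Pcna gave 195 and 71.6 CPM in CD8 T cells and 98 and 47.0 CPM in monocytes/macrophages. The E-type cyclin Ccne1 had only 38.5% of its CD8 T UMIs in cycling cells. Of the monocyte/macrophage UMIs of H2afz, 11.3% were in cycling cells.

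The balance of replication and G2/M UMIs in cycling cells is given over cells pooled from the arms, with no test between lineages. More UMIs of the 13 replication genes than of 21 G2/M genes were found in 20 of 44 cycling CD8 T cells (45.5%, 30.4 to 61.2%) and in 12 of 69 cycling monocytes/macrophages (17.4%, 9.32 to 28.4%). The counts were 9 of 12 in NK cells, 8 of these 9 from the short cohort, and 5 of 12 in cDC1. The median cycling CD8 T cell held 16 replication and 19 G2/M UMIs, and the median cycling monocyte/macrophage 4 and 29. At the same time 65 CD8 T cells and 227 monocytes/macrophages held 3 or more replication UMIs without reaching the cycling call. With that replication count in place of the gate, the shares were 32.8% and 17.9% in CD8 T cells, 22.4% and 6.09% in monocytes/macrophages, 29.4% and 35.6% in NK cells, and 31.0% and 34.0% in cDC1 (long and short).

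Anti-MIF arms were compared with their matched arms within a cohort, isotype with anti-MIF and anti-PD-1 with the combination. In CD8 T cells the cycling share was 4.48 ± 3.26 points higher with anti-MIF (SD, n = 4 pairs), in 4 of 4 pairs, at the smallest p that the exact test allows (p = 0.125, adjusted 0.417), and at -4.80 points when at least 3 replication UMIs took the place of the gate. Of 30 genes tested, 0 were past the threshold in edgeR, whose model also held cohort and anti-PD-1, against 0 of 4886 genes (0%), where 225 genes had an unadjusted p under 0.05 and DESeq2 also called 0. The median log2 fold change of the 30 was 0.00, with 15 positive, and it ran from -0.15 (9 of 29 positive, without the short combination arm) to 0.23 (22 of 29, without the long combination arm) when 1 arm was left out. Without cycling cells the median was -0.50, with 2 of 12 positive and 0 past the threshold. With all cells, the 2 with an unadjusted p under 0.05 were both replication genes and negative, Tk1 (-0.80, SE 0.38) and Mcm6 (-0.59, SE 0.25). Mcm6 gave 119 and 89.0 CPM in the long isotype and anti-MIF arms, 168 and 79.3 CPM in the long anti-PD-1 and combination arms, and in the short arms 68.1 and 73.5, then 95.7 and 58.6 CPM. It was lower with anti-MIF in 3 of these 4 pairs, and the arms overlapped.

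In monocytes/macrophages, no gene passed the test with anti-MIF. The cycling share was 2.68 ± 4.25 points higher with anti-MIF (SD, n = 4 pairs), in 3 of 4 pairs (exact p = 0.375, adjusted 0.536). Of 42 genes tested 0 were past the threshold, against 0 of 9515 genes (0%), where 620 genes had an unadjusted p under 0.05 and DESeq2 called 2. The log2 fold change was positive for 39 of the 42, with a median of 0.55. Stmn1 shows the arms behind this, at 4.55, 31.1, 70.3 and 83.0 CPM in the long isotype, anti-PD-1, anti-MIF and combination arms and at 27.6, 4.56, 15.3 and 1.22 CPM in the short arms. Both long arms with anti-MIF were above their matches, and both short arms were below them. Single arms moved the median by over 1.5 times. It was 0.12 without the long isotype arm (24 of 42 positive), 0.30 without the long combination arm (27 of 35), 0.84 without the short anti-MIF arm (37 of 39) and 1.14 without the short isotype arm (37 of 39, with 22 genes at an unadjusted p under 0.05 against 5 with all arms). The median was also 0.22 without cycling cells (14 of 19 positive) and 1.12 without the cohort term (31 of 33). Past the threshold were 0 of the genes each time. Mcm3 came nearest to the threshold (1.20, SE 0.34, edgeR adjusted p = 0.709). It gave 9.10 and 32.0 CPM in the long isotype and anti-MIF arms, 5.98 and 32.2 CPM in the long anti-PD-1 and combination arms, and 11 and 14.2, then 3.99 and 10.3 CPM in the short arms, so it was higher with anti-MIF in 4 of 4 pairs. An interaction of anti-MIF with cohort was positive for 41 of 42 genes in monocytes/macrophages (median 1.51) and for 5 of 30 in CD8 T cells (median -0.64), and 0 of these genes passed the threshold of edgeR in either lineage (0.116% and 0.0205% of all genes did), with 9 and 5 at an unadjusted p under 0.05 beside 932 of 9515 and 312 of 4886 genes. The interaction of anti-PD-1 with cohort was positive for 34 of 42 genes in monocytes/macrophages (median 1.19) and for 12 of 30 in CD8 T cells (median -0.36), again with 0 past the threshold (0.021% and 0% of all genes), and with 5 and 3 at an unadjusted p under 0.05 beside 305 and 211 of all genes.

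With anti-PD-1, no gene of the set passed the test in CD8 T cells, and the directions were mixed. The share of cycling CD8 T cells changed by 1.89 ± 6.83 points (SD, n = 4 pairs, 2 of 4 positive, exact p = 0.625), and fell by 7.13 points when counted by 3 replication UMIs. Of 30 genes 0 were past the threshold, against 1 of 4886 genes (0.0205%). Of the 30, 6 had an unadjusted p under 0.05 beside 274 of all genes, and DESeq2 called 0. The log2 fold change was positive for 18 of the 30, with a median of 0.16. The median was 0.01 without the long anti-PD-1 arm (15 of 29 positive) and 0.30 without the long combination arm (22 of 29). With 2 UMIs of Cd3e and Cd8a it was -0.01 (15 of 32), and without cycling cells -0.33 (2 of 12). Ube2c came nearest to the threshold (1.59, SE 0.34, edgeR adjusted p = 0.119). It gave 47.0 and 195 CPM in the long isotype and anti-PD-1 arms, 72.4 and 129 CPM in the long anti-MIF and combination arms, and 13.6 and 50.6, then 0 and 68.4 CPM in the short arms. Every arm with anti-PD-1 was above its match in 4 of 4 pairs. It passed the threshold without a filter, with Lyz2 at 1 UMI and without the long anti-MIF or the long combination arm. Cenpf (1.14, SE 0.38), a kinetochore protein, and Mki67 (0.63, SE 0.24) were positive as well, and all 6 tested centromere and spindle genes were positive, whereas 9 of 11 replication genes were negative, with Pcna at -0.67 (SE 0.28). The difference between these gene groups was not tested. In monocytes/macrophages 15 of 42 genes were positive with anti-PD-1 (median -0.29), 0 of them past the threshold, against 0 of 9515 genes (0%), where DESeq2 also called 0, with 2 of the 42 genes at an unadjusted p under 0.05 and 458 of all genes. This direction was not stable, since without the short isotype arm 25 of 39 were positive (median 0.12), the median was -0.04 without the long anti-MIF arm and -0.15 without the short combination arm, whereas without the long combination arm 5 of 35 were positive (median -0.58) and without the limit of 5000 genes 6 of 42 were (median -0.69). The cycling share there changed by -0.0843 ± 3.10 points (SD, n = 4 pairs).

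A minority of the genes was higher in the long than in the short cohort past the threshold. The isotype arms of monocytes/macrophages went the other way in Stmn1 (4.55 against 27.6 CPM). Their cycling shares cannot be ordered, since 0 of 74 cells in the long cohort leaves room for the 2.03% of the short cohort. In CD8 T cells 28 of 30 genes were positive (median 0.79) and 5 were higher past the threshold: Ube2c (1.79), Rrm2 (1.70), Tk1 (1.56), Tubb5 (1.03) and Tuba1b (1.00), against 3.03% higher and 2.82% lower of 4886 genes. In monocytes/macrophages 39 of 42 genes were positive (median 1.71) and 7 were higher, against 2.94% higher and 4.77% lower of 9515 genes. In both lineages 0 were lower. Without cycling cells 12 genes were tested in CD8 T cells, and Mcm4 (1.84) and, lower in the long cohort, Hmgb2 (-0.65) were called. In monocytes/macrophages 19 were tested, and Tubb5 (0.79), Tuba1b (0.68) and, lower, Kif23 (-1.59) were called. Over all genes, the number called without cycling cells stayed within 1.5 times of that with all cells in both lineages. The 7 with all cells were Kif11 (3.44, SE 0.72), Plk1 (3.41), Ccna2 (3.03), Cdc20 (2.63), Tyms (1.67), Tubb5 (0.94) and Tuba1b (0.76). Tubb5 in monocytes/macrophages was 238, 215, 415 and 321 CPM in the long arms and 157, 110, 180 and 152 CPM in the short arms, without overlap. Kif11 there was 0, 10.8, 5.46 and 13.6 CPM in the long and 0.846, 0.190, 0.766 and 0.608 CPM in the short arms. The other long arms were above all 4 short arms. The 0 of the long isotype arm, with 74 cells, cannot be placed against them, since a single UMI there would exceed each short value. The count in monocytes/macrophages turned on single arms, since 21 genes were called without the long isotype arm, 22 without the short isotype arm, 2 each without the long anti-MIF and the short anti-PD-1 arm, 3 without the long combination arm, and 1 each without the long anti-PD-1, the short anti-MIF and the short combination arm. The calls over all genes moved too in these fits, between 61 and 1123, against 734 of 9515 with all arms. Those of the set moved between 1 and 22, against 7 of 42 with all arms. Whether the set moved more than all genes was not tested. Of the 7, Tubb5 kept its call in every alternative in which it was tested. Each of the 5 called in CD8 T cells lost its call in at least 1 alternative, Tk1 in 6 of 18, among them DESeq2 (adjusted p = 0.195) and 2 UMIs of Cd3e and Cd8a (edgeR adjusted p = 0.231). There 8 were called when the long or the short combination arm was left out, 2 without the short anti-PD-1 arm and 1 without the long anti-PD-1 arm. Over all genes, leaving out 1 arm gave 142 to 300 calls in CD8 T cells. The cycling share was higher in the long cohort by 4.62 ± 7.05 points in CD8 T cells and by 3.85 ± 4.15 points in monocytes/macrophages (SD, n = 4 pairs), each in 3 of 4 arms (exact p = 0.375 and 0.25). With at least 2 UMIs each of Cd3e and Cd8a in the gate, the CD8 T difference was -2.07 points. In the other cell cycle list, monocytes/macrophages of the long cohort had more Anln (2.73), Ncapd2 (1.93), Cdkn2c (1.68), Ccnd1 (0.85) and E2f4 (0.63) and less Rb1 (-0.56) and Cdkn1a (-0.49), of 52 tested, and CD8 T cells had more Cdkn2d (1.23), of 34 tested. These calls also turned on single arms. In monocytes/macrophages 0 genes of this list were called without the long anti-PD-1, the long anti-MIF, the short anti-PD-1, the short anti-MIF or the short combination arm. The count in CD8 T cells was 0 when any 1 of the last 3 of these arms was left out, by DESeq2 or with Lyz2 at 1 UMI.

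The study removed cells with over 5000 genes detected. In the long cohort 37 barcodes with a single arm hashtag were over the limit, of which 4 were cDC1 (3 in the combination arm, 2 of the 4 cycling), 4 met no gate (2 cycling) and 29 met the Lyz2 gate. These 29 were all in the anti-MIF arm, and 20 of them were cycling (69.0%, 49.2 to 84.7%). Their median was 29229 UMIs. With them kept, 73 of 784 monocytes/macrophages of the long cohort were cycling (9.31%). The share rose with the number of genes below the limit too, from 2.60% at 2000 to 3000 genes to 7.61% at 3000 to 4000 and 26.5% at 4000 to 5000 genes. CD8 T cells of the long cohort went from 8.64% through 31.0% to 6 of 6 cells over the same steps, and the short cohort rose likewise. Droplets with 2 cells also have more genes. Barcodes that carried 2 hashtags and had at least 200 genes and at most 5% mitochondrial UMIs were cycling in 29 of 418 cases (6.94%) in the long and 11 of 620 (1.77%) in the short cohort, and those over 5000 genes in 3 of 10 and 3 of 8. The part of doublets within an arm, which carry a single hashtag, was not tested.

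**Figure D4:**
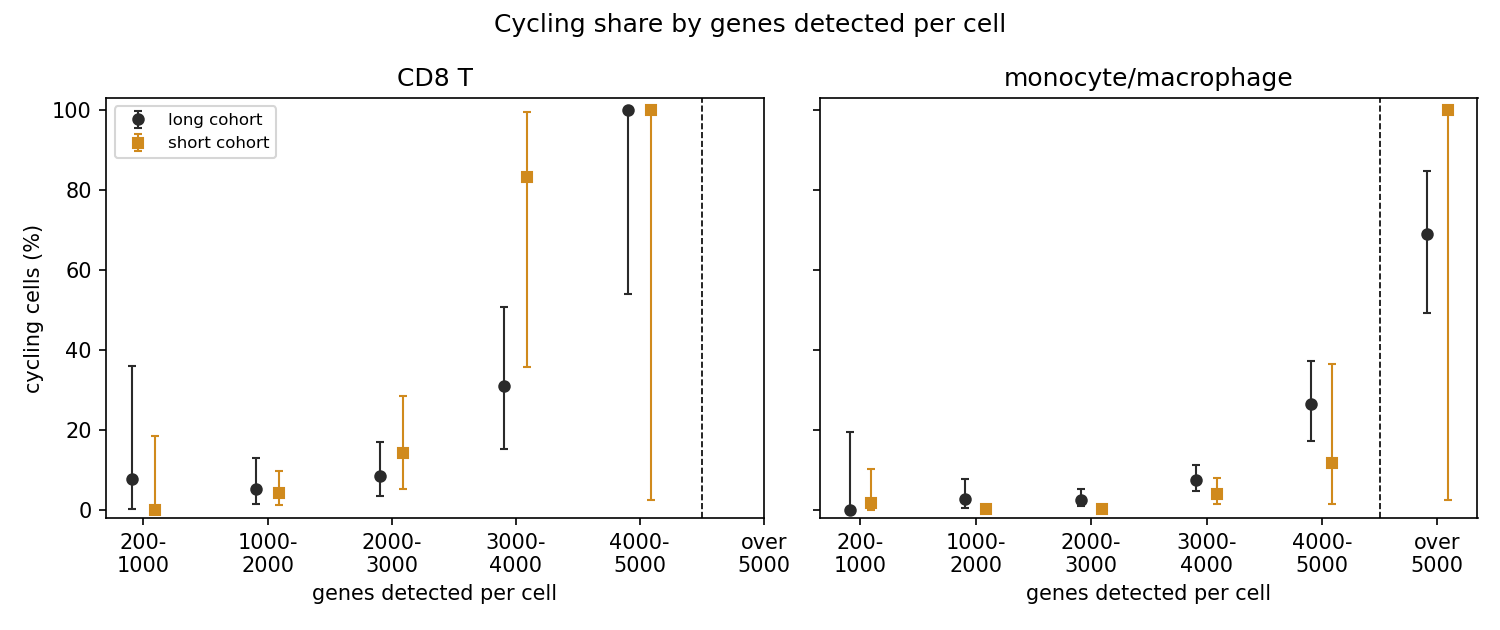
Percent of cycling cells (y axis, with exact binomial 95% intervals) by the number of genes detected per cell (x axis) in CD8 T cells and monocytes/macrophages of both cohorts, with the limit of 5000 genes as a dashed line. In long-cohort monocytes/macrophages the share goes from 2.60% at 2000 to 3000 genes to 69.0% over 5000 genes, and no CD8 T cell was over the limit.

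Cycling monocytes/macrophages carried more of the macrophage marker C1qa, a complement subunit, and less of the monocyte marker Ly6c2 than the other cells of the gate. In the long cohort C1qa was 3697 CPM in cycling and 1849 CPM in other cells, and Ly6c2 was 222 and 1208 CPM. In the short cohort C1qa was 682 and 285 CPM, and Ly6c2 671 and 2036 CPM. Split by these 2 genes, a division chosen after seeing the data, 38 of 222 long-cohort cells with C1qa and without Ly6c2 were cycling (17.1%, 12.4 to 22.7%), against 4 of 312 with Ly6c2 and without C1qa (1.28%, 0.350 to 3.25%). Cells with both gave 11 of 157 (7.01%) and cells with neither 0 of 64. In the short cohort the counts were 6 of 91 (6.59%), 7 of 1292 (0.542%), 2 of 181 and 1 of 210. All 6 of these C1qa cells were in the short isotype arm (6 of 56), and the other short arms gave 0 of 18, 0 of 15 and 0 of 2. Median UMIs were 13079.5 in the C1qa and 10106 in the Ly6c2 cells of the long cohort, and at 3 gate UMIs per 5000 UMIs the shares were 10.8% and 0.962%.

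**Figure D5:**
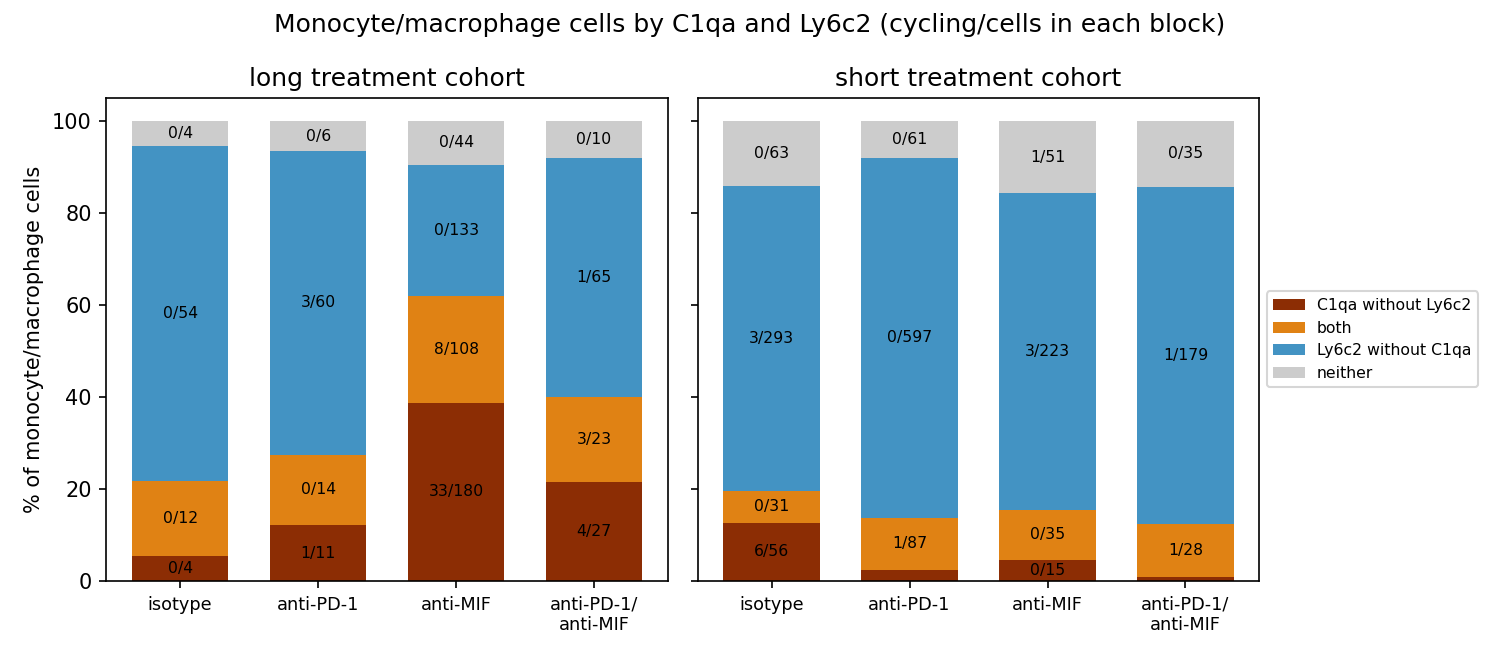
Makeup of the monocyte/macrophage gate (y axis, percent of its cells) in each arm (x axis), split by UMIs of C1qa and Ly6c2, by cohort. Bar height is not a cycling share, and the larger blocks carry their cycling cells over all their cells. Cells with C1qa and without Ly6c2 made up 38.7% of the gate in the long anti-MIF arm, with 33 of 180 cycling. In the short cohort all 6 cycling cells of that kind came from the isotype arm.

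The anti-MIF arm supplied most of the long-cohort C1qa cells. Cells with C1qa and without Ly6c2 made up 5.41% of the gate with isotype, 12.1% with anti-PD-1, 38.7% under anti-MIF and 21.6% with the combination, and 12.6%, 2.36%, 4.63% and 0.820% in the short cohort. Within the long anti-MIF arm 33 of 180 of them (18.3%) and 0 of 133 Ly6c2 cells were cycling. In the long combination arm the counts were 4 of 27 and 1 of 65, and in the short isotype arm 6 of 56 and 3 of 293. These were the 3 arms with at least 20 cells of each kind. In the short anti-MIF arm 0 of 15 C1qa and 3 of 223 Ly6c2 cells were cycling, and the arms differed in how many such cells they held. The part of this makeup in the anti-MIF and cohort differences was not tested.

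Markers of other cells were measured in the same 69 cycling monocytes/macrophages. Of 8 melanoma markers 7 were at 0, but Sox10, Mlana, Dct and Tyr were at 0 in every class of cells, also those without a gate, where Pmel was at 0.547 CPM, so these genes did not mark tumor cells in these libraries. Mitf, which macrophages also express, was at 43.4 CPM against 62.5 CPM in the other cells. Of 7 CD8 T markers Cd8b1 and Trac were at 0, and the highest, Nkg7, was at 3.03 CPM against 1.79 CPM. Of 5 fibroblast markers 3 were at 0 and the highest at 3.03 CPM. Neutrophil markers were uneven. S100a8 and S100a9, granulocyte genes, stood at 3455 and 3225 CPM in the cycling cells against 264 and 195 CPM, but with a UMI in 7.25% and 4.35% of cells, against 8.29% and 2.24%. Csf3r, the receptor of neutrophil growth factor, was at 23.2 against 57.3 CPM and Retnlg at 1.01 against 36.4 CPM. Their part in the cycling share was not tested.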

How the data were processed

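Single-cell RNA and hashtag counts of 2 libraries were analysed, 1 for each cohort. The authors deposited counts: UMIs per gene and barcode from Cell Ranger 7.1.0 on mm10, whole numbers without normalization, with hashtag counts in the same matrices. The annotation release is not given in the sources used here, and the submitters' notes also name Seurat 5.1.0, R 4.3.2 and DESeq2. No column of the matrices lacked a sample (0 were left out).

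Hashtags were called again with HTODemux (Seurat 5.3.0, quantile 0.99), since no deposited call was used here. Barcodes with 2 hashtags (425 and 626 in the long and short library), none (24 and 176) or the fifth hashtag, anti-PD1-MIF-DDT, which the labels do not describe (322 and 1004) were left out. Cells with 200 to 5000 genes and at most 5% mitochondrial UMIs were kept, as in the study, and no further doublet caller was run. Kept cells had medians of 8242 and 5835 UMIs. UMIs were summed per arm and lineage where an arm held at least 10 cells of each class compared, and tested with edgeR 4.0.16 (filterByExpr, TMM, quasi-likelihood, Benjamini-Hochberg, threshold 0.05). Lineage fits had arm as a block, and treatment and cohort fits had anti-MIF, anti-PD-1 and cohort as additive terms. Shares were compared by exact sign-flip tests, with exact Clopper-Pearson 95% intervals, which cover counting error only, and a count of 0 allowed up to 3 counts of the total. Alternatives included DESeq2 1.42.0, its size factors, no filter, other hashtag calls, other gates and leaving out each arm.

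Genes that the text could name were the 44 of the set and, of a list of 85 other cell cycle genes, those past the threshold in at least 1 fit. The set and the lists were chosen with earlier results of these data known. On simulated data the lineage fit recovered 80% of genes changed by 1 on the log2 scale and 97.8% of those changed by 2, with 8 false calls among 7460 genes. The anti-MIF fit recovered 38.0% and 91.3% in CD8 T cells (4527 genes, 6 false calls) and 62.6% and 93.7% in monocytes/macrophages (9295 genes, 8 false calls). Gene positions are GENCODE vM21 (GRCm38), and promoters are RefSeq GRCm38.p6. R 4.3.3, Python 3.11.15, numpy 2.4.6, scipy 1.17.1 and samtools 1.23.1 were used.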

Additional observations from a re-analysis of the deposited data

Results flagged for a closer look

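Some arms stood far from the others of their lineage. Of 40 sets of arms checked, 7 held such an arm. Chance flags about 1 in 20 separate sets, but these sets share cells and genes and 4 of the 7 are the same NK arm, so the count cannot be read against that rate. The cycling share of CD8 T cells was 0 in the short isotype arm, with 15 cells, below the 7 other arms. In NK cells the short anti-PD-1 arm, which had 75 of the cells, stood above the 3 other arms with at least 10 cells in the cycling share (9.33%), in the summed CPM of the cyclins and Cdk1 (93.4), in that of the mitotic kinase, checkpoint and destruction genes (141) and in that of the G2/M genes (581). In cDC1 the long combination arm was low in the summed CPM of the 5 abundant genes (1231), and the short combination arm, with 10 cells, was high in that of the G2/M genes (569).

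The anti-PD-1 difference in the CD8 T cycling share had opposite signs in the 2 cohorts. It was -2.55 points (anti-PD-1 against isotype) and -4.99 points (combination against anti-MIF) in the long cohort, and 9.65 and 5.46 points in the short cohort. This difference between cohorts was not tested, and each cohort is 1 library.

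Signals were also present in cells outside the comparisons. Of the long-cohort monocytes/macrophages over the limit of 5000 genes, 69.0% were cycling. Of the 32 short-cohort CD8 T cells that carried the fifth hashtag, absent from the labels, 12.5% were cycling (exact interval 3.51 to 29.0%).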

How the results depend on the processing

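The difference in cycling share between CD8 T cells and monocytes/macrophages kept its direction in every alternative run. Leaving out 1 arm moved it between 6.67 and 8.88 points (exact p between 0.0156 and 0.0313), the genes called between 4781 and 5200, and the cell cycle genes called between 34 and 37. Each arm is 1 hashtagged sample, small lineages hold few cells, and the treatment fits rest on 8 sums, so depth and cell number limit every arm-level value.

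Of the share differences under other settings, 116 stayed on their side, 14 turned and 2 reached the threshold. The cDC1 against CD8 T difference, -0.617 points, turned to 0.795 with a stricter hashtag quantile, 0.616 without a limit on genes, 0.664 with a gate of 5 UMIs, 5.88 with the replication gate and 0.0815 at 3 UMIs per 5000. The anti-PD-1 difference in monocytes/macrophages, -0.0843, turned to 0.0969 at that quantile, 1.77 with Lyz2 at 20 UMIs, and 0.508 and 0.550 after thinning (1 and 3 UMIs). The long against short difference in CD8 T cells turned to -2.07 with 2 UMIs of Cd3e and Cd8a. NK against CD8 T turned to 1.61 after thinning at 1 UMI and 2.88 with the replication gate, which also turned anti-MIF (-4.80) and anti-PD-1 (-7.13) in CD8 T cells. cDC1 against monocytes/macrophages reached the threshold before adjustment with the replication gate (21.1 points, exact p = 0.0156) and at 3 UMIs per 5000 (6.29, exact p = 0.0469).

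Leaving out 1 arm gave 4.81 to 8.99 points for cDC1 against monocytes/macrophages, -4.29 to 1.5 for cDC1 against CD8 T, and -9.05 to -3.58 for NK against CD8 T. In CD8 T cells it gave 3.03 to 5.64 for anti-MIF, -0.691 to 4.19 for anti-PD-1 and 1.83 to 7.11 for cohort. In monocytes/macrophages it gave 0.632 to 3.84, -1.58 to 0.693 and 2.60 to 5.81.

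Of the counts of calls, 179 stayed within 1.5 times and 35 moved. With no replicate block (no arm term) 19 cell cycle genes (of 22 tested) were called between CD8 T cells and monocytes/macrophages, 3 in cDC1 and 210 genes in NK cells, and without the cohort term 0 genes with anti-PD-1 in CD8 T cells. DESeq2 called 227 genes between NK and CD8 T cells, 2 with anti-MIF in monocytes/macrophages, 0 with anti-PD-1 in CD8 T cells, 132 between cohorts in CD8 T cells, and 4 cell cycle genes between cohorts in monocytes/macrophages. Without a filter, 5 cell cycle genes differed in NK cells, 33 genes with anti-MIF and 32 genes and 1 cell cycle gene with anti-PD-1 in CD8 T cells, 5 and 1 genes with anti-MIF and anti-PD-1 in monocytes/macrophages, and 9 cell cycle genes between cohorts in CD8 T cells. MULTIseqDemux gave 5 in NK cells, and 1164 genes and 13 cell cycle genes between cohorts in monocytes/macrophages. With Lyz2 at 1 UMI, 1 cell cycle gene was called in NK cells, 3 in cDC1 (all lower), 1 with anti-PD-1 in CD8 T cells (of 2 genes) and 4 between cohorts in monocytes/macrophages, where Lyz2 at 20 UMIs gave 435 genes and 2 cell cycle genes. Mcm5 in cDC1 turned to -0.19, not past the threshold, with Lyz2 at 1 UMI. With 2 UMIs of Cd3e and Cd8a, 3 genes were called with anti-PD-1 and 168 between cohorts in CD8 T cells. Without cycling cells, chosen after seeing the data, 18 cell cycle genes were called between CD8 T cells and monocytes/macrophages (Tubb5 at -0.37), 0 in NK cells, 2 genes with anti-MIF in CD8 T cells, and 2 and 3 cell cycle genes between cohorts in CD8 T cells and monocytes/macrophages, 1 of them lower in the long cohort in each. With the cDC1 gate without Siglech, also chosen after seeing the data, 1440 genes and 2 cell cycle genes were called in cDC1. The causes of these moves were not tested, beyond the fewer cells or genes that some settings leave.

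Leaving out 1 arm gave 188 to 407 genes and 1 to 7 cell cycle genes in NK cells, where 7 were called without the short anti-PD-1 arm, and 2030 to 2256 genes and 3 to 9 cell cycle genes in cDC1. In CD8 T cells it gave 0 to 4 genes and 0 cell cycle genes with anti-MIF, 0 to 5 and 0 to 1 with anti-PD-1, and 142 to 300 and 1 to 8 between cohorts. In monocytes/macrophages it gave 0 to 2 and 0 with anti-MIF, 0 to 1 and 0 with anti-PD-1, and 61 to 1123 and 1 to 22 between cohorts, with 1 called without the long anti-PD-1 arm. In CD8 T cells the low of 1 between cohorts was without the long anti-PD-1 arm. Of single genes under other settings, 581 values kept their call, 37 lost it and 2 turned, and with 1 arm left out 377 kept it and 51 lost it.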

Other observations

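Cells outside the 4 gates also held cycling cells, 15 of 573 (2.62%) in long-treated and 25 of 975 (2.56%) in short-treated tumors. Among them, cells with Cd3e and without Cd8a gave 1 of 64 and 6 of 124 (4.84%), and cells with Foxp3, the factor of regulatory T cells, gave 1 of 26 and 4 of 26 (15.4%). Cells with Siglech, a marker of plasmacytoid dendritic cells, gave 0 of 21 and 0 of 33, beside the gated cDC1 with Siglech, of which 0 of 24 and 0 of 15 were cycling. The Foxp3 and Siglech cells were few, and Foxp3 cells can also be counted among the cells with Cd3e.

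Barcodes with the fifth hashtag, anti-PD1-MIF-DDT, that the labels do not describe held 0 of 204 cycling monocytes/macrophages in the long and 3 of 653 (0.459%) in the short library, and 3 of 15 and 4 of 32 cycling CD8 T cells.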
